A study of Oryzias latipes with 15 samples.

Results

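Muscle troponin and filament genes were followed in RNA from the testis of the medaka (Oryzias latipes), a small freshwater fish. They were 4 genes of the 23028 in the expression table: the fast skeletal troponin I genes tnni2a.1 (ENSORLG00000000545) and TNNI2 (ENSORLG00000000559), the skeletal actin gene ACTA1 (ENSORLG00000000136) and the desmin gene desmb (ENSORLG00000000706). They were picked by gene name. The troponin I genes were picked because their values were high in the low-dose libraries, and ACTA1 and desmb were set beside them. The values of all 4 at the low dose are therefore given as a description, without a test.

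The 15 libraries fell into 5 groups of 3 biological replicates: control fish without perchlorate or vitamin C, fish exposed to 0.01 mg/L potassium perchlorate (the low dose), fish exposed to 10 mg/L potassium perchlorate (the high dose), a co-treatment of 10 mg/L potassium perchlorate plus 3 mg/L vitamin C (the combined treatment), and vitamin C at 3 mg/L without perchlorate. The strain, the age, the length of exposure and whether fish were pooled were not given in the sources used here. Perchlorate competes with iodide for transport into thyroid cells, and vitamin C acts as an antioxidant. The groups ask how each dose, vitamin C alone and vitamin C added to the high dose changed testis RNA.

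Striated muscle contracts when myosin thick filaments pull on actin thin filaments. Troponin sits on the thin filament with tropomyosin: troponin C binds calcium, troponin T holds the complex to tropomyosin, and troponin I blocks the contact of actin with myosin until calcium arrives. ACTA1 encodes the actin of the skeletal thin filament, and desmin forms intermediate filaments that tie neighbouring myofibrils together at the Z-disc in striated muscle and also occurs in smooth muscle. In a testis, smooth muscle surrounds vessels and ducts, and skeletal muscle is not part of the organ, though body wall muscle lies close to it.

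All values are normalized read counts per gene and library as the authors deposited them. They were not divided by gene length, so levels were compared between groups for 1 gene and not between genes. The recovered depth was 7.82 to 13.0 M reads per library in the control, 5.48 to 6.19 M at the low dose, 3.21 to 12.2 M at the high dose, 10.5 to 21.3 M with the high dose and vitamin C, and 7.86 to 15.04 M with vitamin C alone. Genes that mark germ cells and supporting cells of the testis were present in every library: ddx4, a germ cell gene, lay between 7728 and 19218 normalized counts, and gsdf, a Sertoli cell gene, between 3190 and 9980.4. They were not even across groups. All 6 testis genes looked at were lower in each low-dose library than in any control. Of all genes tested, 22.9% were called lower at the low dose, and the share without overlap was not counted. At the low dose gsdf held 3190 to 7181 against 7220 to 9309 in the control. The testis gene dmrt1 held 175 to 805 against 850 to 959. At the high dose ddx4 also lay below the control, at 7728 to 8781 against 11793 to 13390, and the other testis genes overlapped the control. The low-dose libraries stood apart in oocyte genes. The summed level of the 8 oocyte genes listed was 107404, 239111 and 22623 normalized counts in low-dose replicates 1, 2 and 3, against 275 to 365 in the control. The sum was above the control in the other treated groups too, to a far smaller extent. It was 767 to 1119 at the high dose, 1112 to 1411 in the combined treatment and 1513 to 2373 with vitamin C alone. Bulk RNA cannot tell fewer cells of a type from less RNA per cell.

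The troponin I genes were near the limit of detection outside the low-dose group. For tnni2a.1, the control replicates 1, 2 and 3 held 2.12, 4.98 and 11.4 normalized counts, a mean of 6.17 ± 4.75 (SD, n = 3). The low-dose replicates held 489, 1016 and 85.6, a mean of 530.2 ± 467 (SD, n = 3). The high dose gave 17.2, 11.6 and 7.44, the high dose with vitamin C 7.27, 9.59 and 4.08, and vitamin C alone 12.4, 9.02 and 7.08. Each low-dose library thus lay above all 12 other libraries, while the other 4 groups overlapped along their order of means from the high dose down to the control. The low-dose values themselves spread widely, with replicate 2 highest and replicate 3 lowest.

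TNNI2 had the same order within the low dose. Its control replicates held 0, 2.49 and 0.670 normalized counts, which came from 0, 2 and 1 reads. Its low-dose replicates held 366, 1011 and 66.0, from 179, 422 and 44 reads, a mean of 481 ± 483 (SD, n = 3). The low-dose SD was as large as the mean, because replicate 2 was far above replicate 3. TNNI2 had 11.5, 11.6 and 5.31 normalized counts at the high dose, 2.83, 7.79 and 7.35 with vitamin C added to it, and 3.54, 5.15 and 2.36 with vitamin C alone. All 3 high-dose libraries were above all 3 controls.

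**Figure D1:**
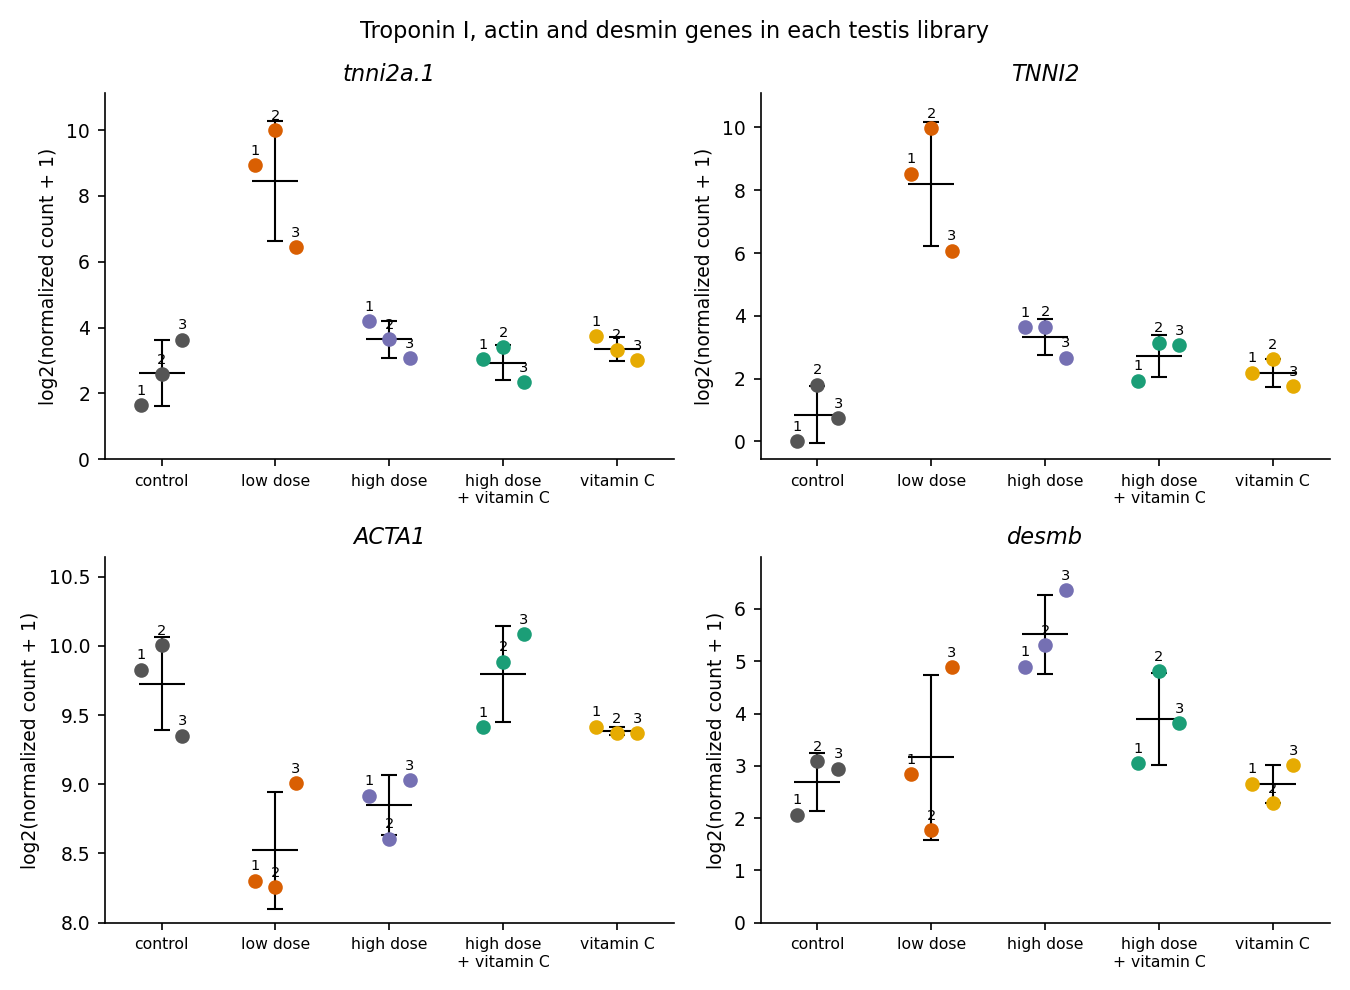
Each point is 1 library (numbers are replicates), as log2(normalized count + 1), with bars for the group mean ± SD of 3 libraries. The vertical axis of ACTA1 does not start at 0. The troponin I genes are high in the low-dose libraries, ACTA1 is low at both perchlorate doses without vitamin C, and desmb is highest at the high dose.

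Described as log2 differences of log2(value + 1) from the control, ± the standard error of the fit, the low dose stood 5.84 ± 0.72 higher for tnni2a.1 and 7.34 ± 0.78 higher for TNNI2. The control held 3 TNNI2 reads in all, so the size of its difference depends on the 1 added before the logarithm. With low-dose replicate 3 alone, the log2 differences were 3.82 for tnni2a.1 and 5.22 for TNNI2. Without it they were 6.85 and 8.40. The size of the low-dose difference therefore depended on which low-dose library was counted. Its sign was part of the choice of these genes and is not a result.

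In the same 3 libraries the oocyte genes had the same order, replicate 2 above 1 above 3. The egg coat gene zp3b had 11509.5, 16096 and 2496 normalized counts at the low dose and 21.2, 32.4 and 21.4 in the control. The oocyte growth factor gene bmp15 had 5542, 8751 and 1118 at the low dose and 5.30, 6.23 and 10.1 in the control. All 8 listed oocyte genes were called higher at the low dose by limma, where 24.9% of all 17778 genes tested were called higher and 22.9% lower. Their median log2 fold change was 7.95, against -0.01 over all genes. Each of the 3 low-dose libraries carried both signals, and the part of the oocyte genes in the troponin I values was not tested.

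At the other dose the troponin I genes differed little or modestly. Across the high dose and the control, tnni2a.1 overlapped, and its log2 fold change was 1.02 ± 0.72 (limma adjusted p = 0.273), or -0.23 after quantile normalization. TNNI2 was higher by 2.47 ± 0.78 on the log2 scale (limma adjusted p = 0.0200), and these groups did not overlap. This rested on 27 reads in 3 high-dose libraries against 3 reads in 3 controls, a pooled ratio of 10.2 with an exact 95% interval of 3.15 to 52.7 for counting error. The TNNI2 call was lost with edgeR on recovered reads (3.18, adjusted p = 0.0643), with a pseudocount of 5 (1.24, adjusted p = 0.135), after quantile normalization (1.15, adjusted p = 0.252), and without control replicate 1 (2.05, adjusted p = 0.0898), high-dose replicate 1 (2.31, adjusted p = 0.0537) or high-dose replicate 2 (2.30, adjusted p = 0.0687). The high dose and the low dose were compared with the same control libraries, which also entered the choice of both troponin I genes. Both genes also passed the filter through the low-dose libraries alone. Their high-dose p-values are therefore not independent tests.

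Vitamin C changed neither troponin I gene past the test. Adding it to the high dose moved tnni2a.1 by -0.71 ± 0.72 (limma adjusted p = 0.528) and TNNI2 by -0.61 ± 0.78 (limma adjusted p = 0.624) on the log2 scale. Given alone, it moved tnni2a.1 by 0.74 ± 0.72 (limma adjusted p = 0.832) and TNNI2 by 1.34 ± 0.78 (limma adjusted p = 0.644). Within vitamin C, the high dose differed from vitamin C alone by -0.43 ± 0.72 for tnni2a.1 (limma adjusted p = 0.862) and by 0.53 ± 0.78 for TNNI2 (limma adjusted p = 0.841). The libraries outside the low dose held 0 to 21 reads of either gene, so a change of modest size was not detectable at this depth. Both troponin I genes passed the filter of a mean of 10 normalized counts through the low-dose libraries alone, since their means over the 12 other libraries were 8.68 and 5.05. How reads matching more than 1 gene were counted was not given in the sources used here, so the split of reads between tnni2a.1, TNNI2 and the related tnni2a.2 is uncertain.

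ACTA1 went the other way and was read from 304 to 1085 normalized counts per library. The control replicates held 909, 1025 and 653 normalized counts, a mean of 862 ± 191 (SD, n = 3). The low-dose replicates held 315, 304 and 513, a mean of 378 ± 118 (SD, n = 3), and the high-dose replicates 483, 389 and 521, a mean of 464 ± 67.8 (SD, n = 3). The ranges of both doses lay below every control library and overlapped each other. With vitamin C added to the high dose ACTA1 held 679.6, 946 and 1085, and with vitamin C alone 682, 661 and 661. These groups overlapped the control, and all 6 of their libraries were above all 6 libraries given perchlorate without vitamin C.

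ACTA1 fell at the high dose by 0.88 ± 0.23 on the log2 scale (limma adjusted p = 0.00779). The low-dose difference, given as a description, was -1.21 ± 0.23, and -0.72 with replicate 3 alone. The median of abundant genes was also below 0 at both doses: over the 4696 genes whose mean in the controls reached 500, the median log2 fold change was -0.31 at the low dose and -0.37 at the high dose, against -0.01 and 0.05 over all genes. Scaled on those abundant genes, the high-dose value of ACTA1 was -0.50 (limma adjusted p = 0.0605), past the threshold no longer, and after quantile normalization it was -0.59 (limma adjusted p = 0.0811). On that same scaling the low-dose description of ACTA1 was -0.91.

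With vitamin C added to the high dose, ACTA1 was higher than at the high dose alone by 0.94 ± 0.23 on the log2 scale (limma adjusted p = 0.0188), without overlap of the 3 libraries on each side. That comparison shared no library with the one that chose the genes, but its standard error came from the fit over all 15 libraries. The genes were also chosen with earlier results of these data known, so it is not a fully independent test. The call was lost without high-dose replicate 2 (0.82, adjusted p = 0.0950), without replicate 2 of the combined treatment (0.90, adjusted p = 0.0778) and without its replicate 3 (0.80, adjusted p = 0.106). Vitamin C alone moved ACTA1 by -0.34 ± 0.23 (limma adjusted p = 0.713), and the high dose within vitamin C by 0.41 ± 0.23 (limma adjusted p = 0.575). The effect of the high dose on ACTA1 was thus -0.88 without vitamin C and 0.41 with it, and the difference of these effects was 1.29 ± 0.33 (limma adjusted p = 0.0303). It was lost in 7 of 12 fits that each left out 1 library, with adjusted p up to 0.0932, and after quantile normalization (1.10, adjusted p = 0.0652). These 7 fits left out control replicate 1 or 2, high-dose replicate 2, replicate 2 or 3 of the combined treatment, or replicate 2 or 3 of vitamin C alone, with values between 1.14 and 1.28. Over the 4696 abundant genes the median of this difference was 0.29, against -0.08 over all genes. Scaled on abundant genes, the difference for ACTA1 was 1.04 (limma adjusted p = 0.0458).

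The desmin gene desmb was highest at the high dose. Its control replicates held 3.18, 7.48 and 6.70 normalized counts, a mean of 5.79 ± 2.29 (SD, n = 3). The high-dose replicates held 28.7, 38.5 and 80.8, a mean of 49.3 ± 27.7 (SD, n = 3), from 10, 60 and 76 reads. Every high-dose library was above every library of the other treatments, the nearest being low-dose replicate 3 at 28.5. The other low-dose replicates held 6.14 and 2.40, so the low dose spanned the control range. The combined treatment gave 7.27, 27.0 and 13.1, and vitamin C alone 5.31, 3.87 and 7.08.

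desmb rose at the high dose by 2.82 ± 0.69 on the log2 scale (limma adjusted p = 0.00492). That call held in all 15 alternatives tried, with log2 fold changes of 1.90 to 3.19 and adjusted p of 8.02e-05 to 0.0309. The combined treatment was lower than the high dose in every library, by -1.63 ± 0.69 on the log2 scale, and did not pass (limma adjusted p = 0.138). DESeq2 on recovered reads gave -1.69 with an adjusted p of 0.0465, past the threshold. Vitamin C alone moved desmb by -0.05 ± 0.69 (limma adjusted p = 0.993). Within vitamin C the high dose was higher in each library, by 1.24 ± 0.69 (limma adjusted p = 0.567), and the difference of the dose effects with and without vitamin C was -1.58 ± 0.98 (limma adjusted p = 0.302). At the low dose the described value of desmb was 0.46 ± 0.69, which was -0.40 without replicate 3 and 2.19 with replicate 3 alone.

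**Figure D2:**
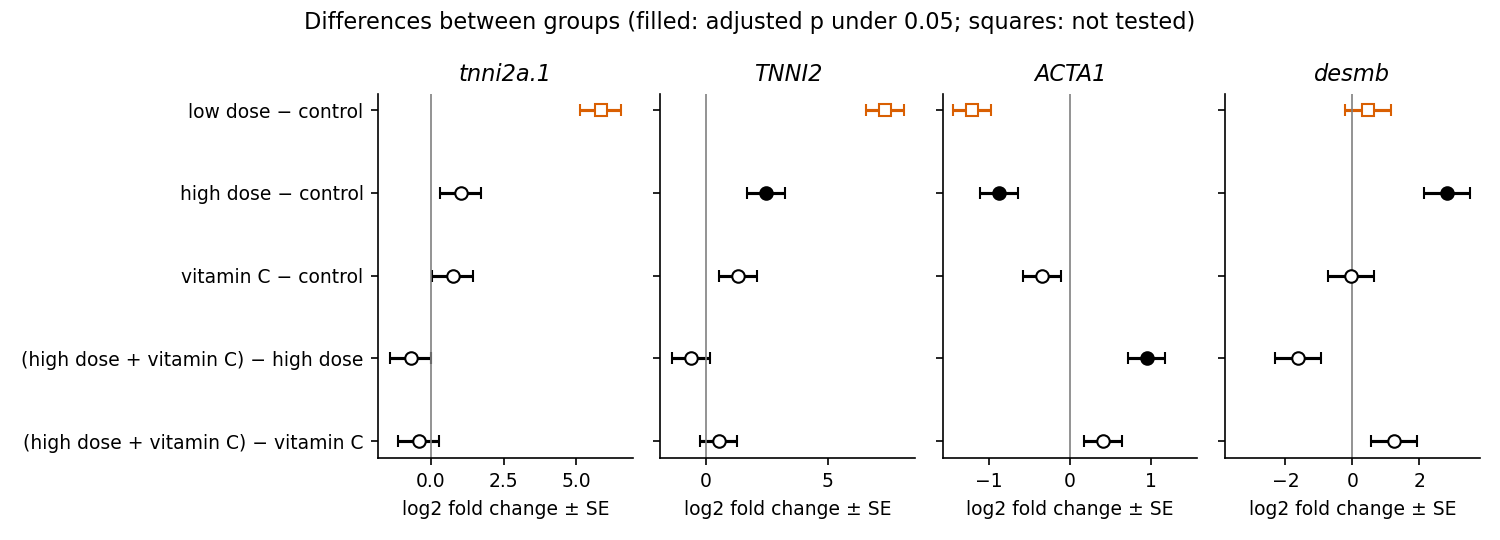
Log2 fold change ± SE from the limma fit for each of 5 differences between groups, 1 panel per gene with its own horizontal axis. Filled circles passed an adjusted p under 0.05, open circles did not, and open squares are the low-dose description. TNNI2 (2.47), ACTA1 (-0.88) and desmb (2.82) passed at the high dose, and ACTA1 (0.94) when vitamin C was added to it. TNNI2 was chosen with the same control libraries, so its high-dose value is not an independent test.

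Another desmin gene, desma (ENSORLG00000016133), was highest in a different group from desmb. It held 64.7, 54.8 and 215 normalized counts in the control, 919, 1963 and 279 at the low dose, and 37.3, 36.0 and 28.7 at the high dose. The low dose was the highest group, with replicate 2 on top as for the troponin I genes, and the high dose was below every control. desma rose at the low dose by 3.11 ± 0.58 on the log2 scale (limma adjusted p = 8.94e-04), and was 1.60 higher with low-dose replicate 3 alone (limma adjusted p = 0.106). A fit with that replicate alone takes its spread from the other groups and assumes that the lone library varies as they do. At the high dose desma did not pass either (-1.41 ± 0.58, limma adjusted p = 0.0659). Of the 7 tested genes of intermediate filaments and their linkers other than desmb, 3 were higher and 1 was lower at each dose. Over all genes, the shares called higher and lower were 24.9% and 22.9% for the low dose and 18.3% and 20.5% for the high dose. At the high dose these were the neurofilament gene nefma (2.11 ± 0.58, limma adjusted p = 0.00960), the linker gene pleca (0.78 ± 0.22, limma adjusted p = 0.0123), the glial filament gene gfap (1.24 ± 0.43, limma adjusted p = 0.0333) and, lower, the nuclear lamin gene lmnb2 (-0.91 ± 0.18, limma adjusted p = 0.00111). The gfap call was lost in 5 of 6 fits that each left out 1 library, all but the one without control replicate 3, with values of 1.01 (without control replicate 1) to 1.38, and after quantile normalization (0.47, limma adjusted p = 0.380). Without control replicate 2 or high-dose replicate 2, nefma (1.73 and 1.61) and pleca (0.56 and 0.70) were not called, with limma adjusted p of 0.0552, 0.0554, 0.0810 and 0.0554, and nefma was not called after quantile normalization (1.01, limma adjusted p = 0.114).

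The other subunits of the troponin complex were mostly at low levels. The table named 12 troponin genes besides the 2 troponin I members, of which 5 passed the filter. The other 7 lay between 0 and 24.4 normalized counts in every library. Of these 5, tnnc2.2 and tnni2a.2 passed through the low-dose libraries alone, with means of 3.36 and 8.72 over the other 12, so their low-dose values are given without a test. Of the other 3, 2 (tnnt2e and tnnt2a) were called higher at the low dose and none lower. Over all genes, 24.9% were called higher and 22.9% lower there. Both calls were lost in a limma fit of the low dose and the control alone.

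The fast skeletal troponin C gene tnnc2.2 had the replicate order of the troponin I genes at the low dose. It held 2.12, 4.98 and 2.01 normalized counts in the control and 49.1, 86.3 and 19.5 at the low dose, a log2 difference of 3.55. The third fast troponin I gene, tnni2a.2, held 6.36, 7.48 and 8.71 in the control and 14.3, 71.9 and 22.5 at the low dose, a log2 difference of 1.81. The tnnt2 genes encode cardiac type troponin T. tnnt2e rose at the low dose by 1.18 ± 0.35 (limma adjusted p = 0.0128), and tnnt2c did not pass (-0.17 ± 0.35, limma adjusted p = 0.708). With low-dose replicate 3 alone the log2 differences were 2.42 for tnnc2.2, 1.47 for tnni2a.2, 0.41 for tnnt2e (limma adjusted p = 0.572) and 0.76 for tnnt2a (limma adjusted p = 0.339). tnnt2e was not called without low-dose replicate 2 (0.89, limma adjusted p = 0.0679), without control replicate 2 (1.06, limma adjusted p = 0.0535) or after quantile normalization (0.83, limma adjusted p = 0.0602).

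tnnt2a was highest at the high dose. It held 7.42, 6.23 and 9.38 normalized counts in the control, 20.5, 24.0 and 13.5 at the low dose, 46.0, 96.3 and 70.2 at the high dose, 30.7, 39.6 and 41.6 with vitamin C added, and 11.8, 14.2 and 14.2 with vitamin C alone. The high-dose libraries were above all others, and those of the combined treatment were second. Its log2 rise was 1.21 ± 0.35 at the low dose (limma adjusted p = 0.0110) and 3.00 ± 0.35 at the high dose (limma adjusted p = 6.72e-05). The high-dose call held in all 15 alternatives. The other 4 of these 5 troponin genes did not pass at the high dose. None of the 5 passed in the main limma fit in the comparisons with vitamin C. Among them, tnnc2.2 and tnni2a.2 passed the filter through the low-dose libraries alone. Their means over the 12 other libraries were 3.36 and 8.72, so their missing calls say little. The difference of dose effects for tnnt2a was -1.60 ± 0.50 (limma adjusted p = 0.0575), and it passed in 5 of 21 alternatives: with edgeR (-1.69, adjusted p = 0.0366), with DESeq2 (-1.76, adjusted p = 0.0182), in a limma fit of the groups compared alone (adjusted p = 0.0190), and without control replicate 3 (-1.73, limma adjusted p = 0.0495) or high-dose replicate 1 (-1.87, limma adjusted p = 0.0314). DESeq2 also called tnnt2a lower when vitamin C was added to the high dose (-1.01, adjusted p = 0.0189), and higher in the combined treatment than with vitamin C alone (1.49, adjusted p = 0.0110), as did a limma fit of those groups alone (1.41, adjusted p = 0.0293).

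Over 8 lists of muscle genes, 120 genes other than the 4 followed were named in the table and 77 were tested. At the low dose 20 of these 77 were higher (26.0%), 15 were lower (19.5%) and 42 did not pass, with a median log2 fold change of 0.02. These shares were near those of all genes. The split was 14 higher and 17 lower after quantile normalization, and 27 and 10 when scaled on abundant genes. The scaling lifts the low-dose values of all genes, since the median of abundant genes was -0.31 before it. Shares of all genes in these settings were not counted. Leaving out 4 genes that passed the filter through the low-dose libraries alone left 16 higher and 15 lower of 73. With low-dose replicate 3 as the only low-dose library, in a fit whose spread comes from the other groups, 5 of 77 were called, 2 higher and 3 lower, and without replicate 2 the count was 22.

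The genes that rose at the low dose included partners of the thin and thick filaments. The myosin binding protein gene mybpc3 held 10.6, 11.2 and 11.4 normalized counts in the control and 180.1, 297 and 60.0 at the low dose (3.62 ± 0.46, limma adjusted p = 4.45e-05). The M-band gene MYOM3 rose by 2.63 ± 0.37 (limma adjusted p = 1.30e-04), and the Z-disc alpha-actinin gene actn2b by 2.82 ± 0.49 (limma adjusted p = 5.41e-04), from 29.7, 32.4 and 40.9 to 295, 566 and 90.1. These genes had the replicate order of the troponin I genes, an order that the oocyte genes zp3b and bmp15 shared. The tropomyosin gene TPM1 rose by 1.26 ± 0.28 (limma adjusted p = 0.00216). The muscle regulatory factor gene myf6 held 1.06, 2.49 and 2.68 in the control and 36.8, 76.7 and 6.0 at the low dose. It passed the filter through the low-dose libraries alone, with a mean of 7.52 over the other 12, and has no low-dose test. In the fit with replicate 3 as the lone low-dose library, the value was 2.34 for mybpc3 (limma adjusted p = 0.00609) and 2.12 for MYOM3 (limma adjusted p = 0.0202), and actn2b and TPM1 did not pass.

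Other muscle genes fell at the low dose, where ACTA1 was low as well. The calcium release channel gene ryr1b held 1997, 2132 and 1569 normalized counts in the control and 422, 259 and 877 at the low dose (-2.04 ± 0.32, limma adjusted p = 2.61e-04). The mitochondrial creatine kinase gene ckmt2a fell by 2.61 ± 0.35 on the log2 scale (limma adjusted p = 7.07e-05), the M-band gene myom2a by 1.37 ± 0.24 (limma adjusted p = 5.92e-04), the muscle creatine kinase gene CKM by 1.26 ± 0.26 (limma adjusted p = 0.00174) and the triad membrane gene sypl2a by 1.06 ± 0.26 (limma adjusted p = 0.00403). In the fit with replicate 3 as the lone low-dose library, the value was -1.10 for ryr1b (limma adjusted p = 0.0111), -2.74 for ckmt2a (limma adjusted p = 6.55e-04) and -2.51 for the cardiac myosin gene myh6 (limma adjusted p = 0.0464), while myom2a, CKM and sypl2a did not pass. Muscle genes thus moved in both directions at the low dose.

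At the high dose 23 of the 77 muscle genes were higher (29.9%), 7 were lower (9.09%) and 47 did not pass, with a median log2 fold change of 0.47, where all genes had 0.05. Of all 17778 genes 18.3% were called higher and 20.5% lower. Scaled on abundant genes, the split was 34 higher and 5 lower. That scaling lifts the high-dose values of all genes, since the median of abundant genes was -0.37 before it. The shares of all genes called on that scaling were not counted. Leaving out the 4 genes that passed the filter through the low-dose libraries alone left 22 higher and 7 lower of 73. Muscle regulatory factors then had 3 higher of 5. By list, the higher and lower counts were 1 and 0 of 5 for troponins, 1 and 1 of 5 for the thin filament, 5 and 1 of 12 for the thick filament, 6 and 0 of 14 for the Z-disc, 3 and 5 of 22 for calcium and energy genes, 4 and 0 of 6 for muscle regulatory factors, 2 and 0 of 7 for heart genes and 2 and 0 of 9 for smooth muscle.

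Several muscle genes that rose at the high dose, where desmb rose, had few counts in the control. The regulatory light chain gene MYL2 held 4.24, 1.25 and 1.34 normalized counts in the control and 23.0, 54.6 and 30.8 at the high dose (3.53 ± 0.52, limma adjusted p = 1.86e-04). The muscle stem cell factor gene pax7a held 2.12, 0 and 1.34 in the control and 5.75, 58.4 and 31.9 at the high dose (3.61 ± 0.74, limma adjusted p = 0.00160). The Z-disc gene XIRP2 held 8.62, 105 and 19.1 at the high dose against 2.12 to 5.36 in the control (2.59 ± 0.69, limma adjusted p = 0.00827). High-dose replicate 2 was highest for these 3 genes, unlike desmb, which was highest in replicate 3. The filamin gene flnc (2.30 ± 0.46, limma adjusted p = 0.00149), the heart calcium channel gene RYR2 (2.73 ± 0.49, limma adjusted p = 6.41e-04) and the regulatory factor gene mef2cb (1.62 ± 0.30, limma adjusted p = 7.73e-04) rose as well.

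The genes that fell at the high dose, as ACTA1 did, included ryr1b, CKM, ckmt2a, myom2a and sypl2a. ryr1b held 796, 652 and 726 normalized counts, below the control in each library (-1.38 ± 0.32, limma adjusted p = 0.00322). CKM held 132, 97.6 and 117 against 371, 516 and 227 in the control (-1.61 ± 0.26, limma adjusted p = 3.72e-04). ckmt2a (-2.11 ± 0.35, limma adjusted p = 3.62e-04), myom2a (-1.03 ± 0.24, limma adjusted p = 0.00371) and sypl2a (-1.04 ± 0.26, limma adjusted p = 0.00535) fell too, and myh6 did not pass (-1.37 ± 0.54, limma adjusted p = 0.0565). Both doses were compared with the same 3 controls, so the lists of genes at the 2 doses are not independent of each other.

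**Figure D3:**
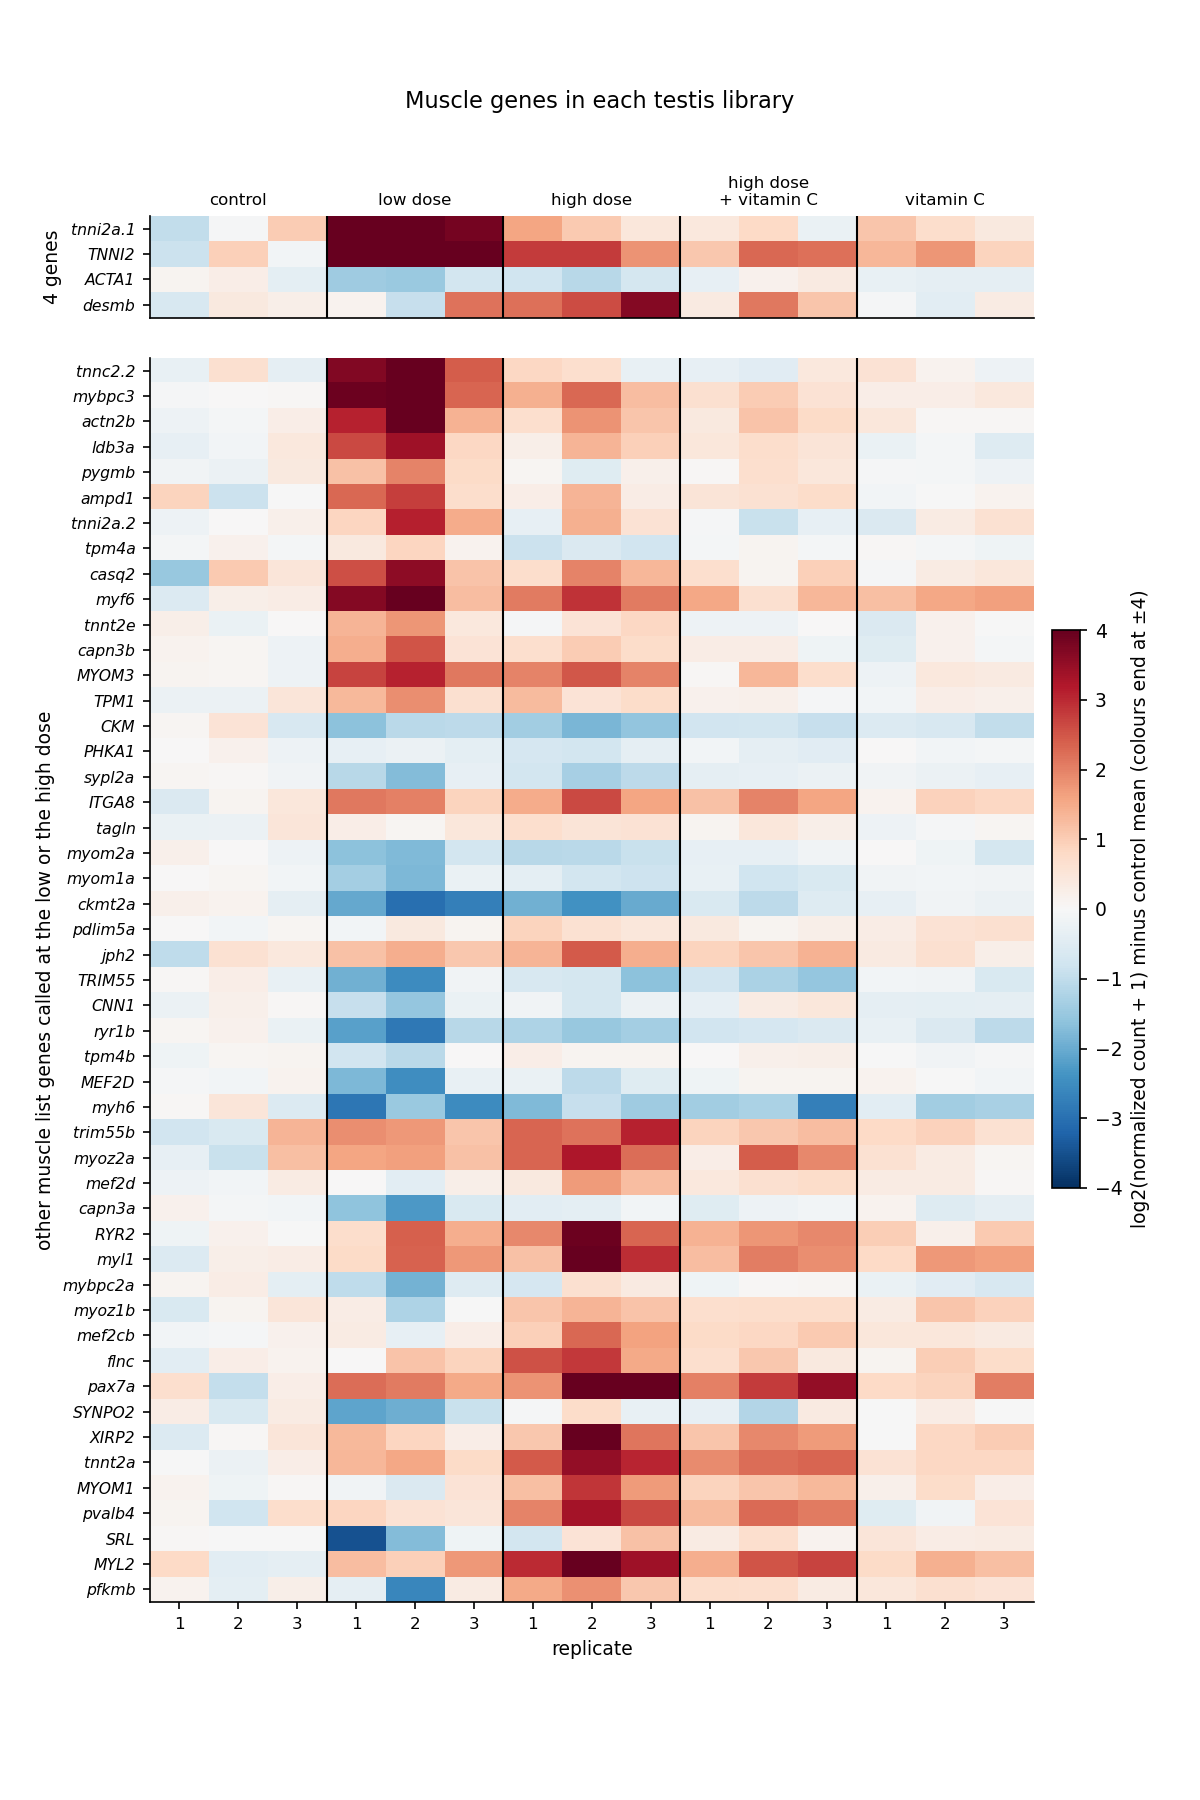
Colour gives log2(normalized count + 1) minus the control mean in each of 15 libraries, with colours ending at ±4. The upper block holds the 4 genes followed, and the lower block the 49 other genes of the muscle lists called at the low or the high dose, ordered by the difference of their log2 fold changes. Genes at the top are red at the low dose, strongest in replicate 2, those at the bottom are red at the high dose, and ckmt2a, CKM, myom2a and ryr1b are blue at both.

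Vitamin C added to the high dose moved few of these genes past the test. Of the 77, 2 were higher (ckmt2a by 1.39 ± 0.35, limma adjusted p = 0.0204, and the tropomyosin gene tpm4a by 0.72 ± 0.19, limma adjusted p = 0.0244), 2 were lower (MYOM3 by -1.44 ± 0.37, limma adjusted p = 0.0241, and flnc by -1.59 ± 0.46, limma adjusted p = 0.0411), and 73 did not pass. Of all genes tested, 7.74% were called higher and 2.64% lower. Scaled on abundant genes, 1 of the 77 was higher and 2 were lower, and the shares of all genes were not counted. No call among the 77 was left without high-dose replicate 2 or without replicate 3 of the combined treatment. DESeq2 on recovered reads called 7 higher and 12 lower, and edgeR 5 and 5. Over all genes these tools also called more than limma did. DESeq2 called 1993 higher and 1732 lower of 17773, and edgeR 1791 and 795 of 17778.

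With vitamin C alone, none of the 77 was called by limma, edgeR or DESeq2, with 3 higher and 1 lower at an unadjusted limma p under 0.05. Of all genes 0.304% were called higher and 0.101% lower. Between the combined treatment and vitamin C alone, limma and edgeR called none and DESeq2 called 1 higher, with 7 higher and 1 lower at an unadjusted limma p under 0.05. Of all genes 0.27% were called higher and 0% lower there by limma, where the lower calls were 772 at an unadjusted p, 0 by edgeR and 10 by DESeq2. The difference of the dose effects with and without vitamin C passed for 1 of the 77, CKM at 1.53 ± 0.37 (limma adjusted p = 0.0263), with 5.6% of all genes higher and 2.47% lower. The split was 2 higher and 1 lower after quantile normalization, and 1 and 3 when scaled on abundant genes, with shares of all genes not counted. CKM shared the sign of ACTA1 in that difference. Its call was lost in the same 7 fits that left out 1 library, with adjusted p up to 0.0918.

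Marker sums of other tissues moved with some of these genes. The summed smooth muscle list lay at 3828 to 5722 normalized counts in the control, 3472 to 5180.3 at the low dose and 4803 to 5823 at the high dose, so these groups overlapped. The calcium and energy list of skeletal muscle lay at 5701 to 6171 in the control, 4199 to 5259.9 at the low dose and 3616 to 3894 at the high dose, below the control at both. The combined treatment at 4710 to 5370 and vitamin C alone at 4356 to 5281 were below the control as well, so this was not particular to perchlorate. Few abundant genes made much of this sum: ryr1b, pygmb and sypl2a had means of 1113, 1078 and 1074 over the 15 libraries. Of its 21 genes that passed the filter without the low-dose libraries, 3 were higher and 5 lower at each dose. Over all genes these shares were 24.9% and 22.9% at the low dose and 18.3% and 20.5% at the high dose. The sum therefore does not stand for the whole list. The intestine list, which was added after values were seen, summed to 197, 188 and 655 in the control, 741, 1313 and 1006 at the low dose, 1479, 1542 and 2266 at the high dose, 228 to 282 in the combined treatment and 173 to 254 with vitamin C alone. It was highest at the high dose, in replicate 3, as desmb was. Elsewhere the sum and desmb parted. In low-dose replicate 2 the sum was 1313 while desmb was 2.40, its lowest value in the 15 libraries. There fabp6 made most of the sum, with 389 reads against 104 of cdh17, 26 of VILL and 2 of foxa3. The sum in that library therefore does not stand for the whole intestine list. In replicate 2 of the combined treatment the sum was 282 while desmb was 27.0. At the high dose 5 of its 6 tested genes were higher, where 18.3% of all genes were, and with vitamin C added 3 of 6 were lower, where 2.64% of all genes were. Since this list was chosen on these values, the counts describe it only. Among the lower genes was cdh17 of the intestinal epithelium, which held 908, 715 and 1227 at the high dose and 47.7, 36.6 and 48.2 in the combined treatment. The part of intestinal RNA in the desmb values was not tested.

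**Figure D4:**
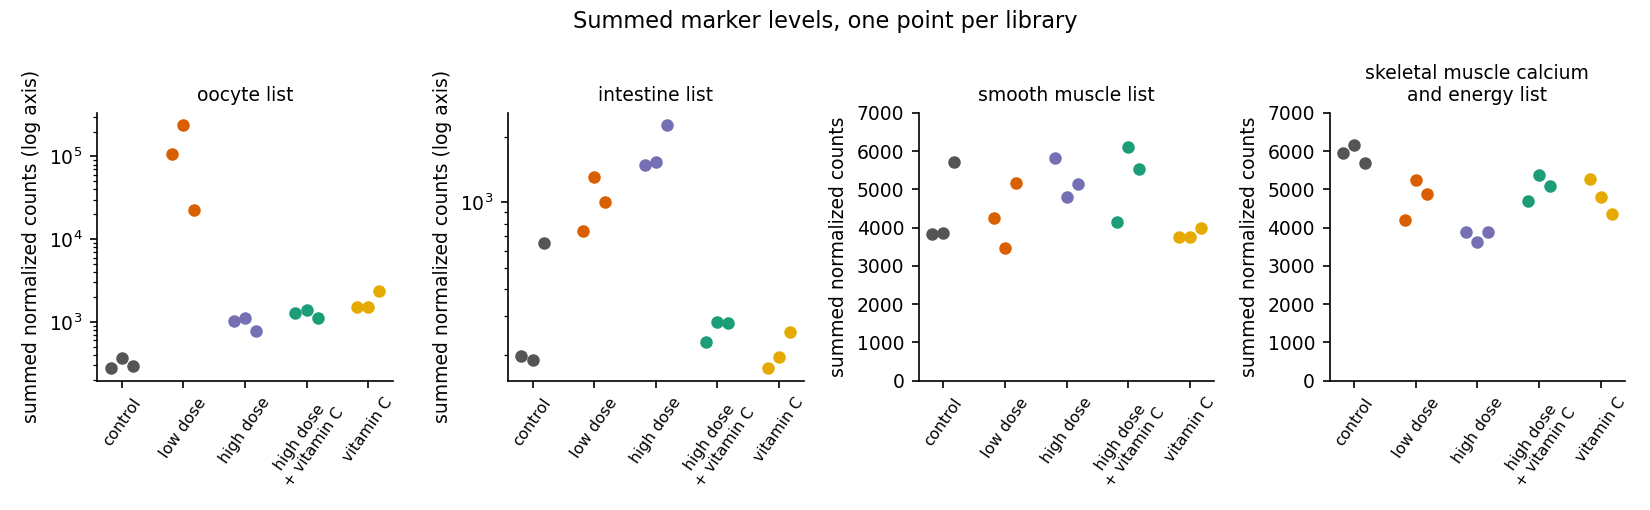
Summed normalized counts of 4 marker lists, 1 point per library in replicate order, with logarithmic axes for the oocyte and intestine lists and linear axes from 0 for the others. Oocyte genes reach 22623 to 239111 at the low dose against 275 to 365 in the control, and intestine genes reach 1479 to 2266 at the high dose. Oocyte genes also lie above the control in the other treated groups, at 1513 to 2373 with vitamin C alone.

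The genes most like each of the 4 were found by Pearson correlation of log2(value + 1) over the 15 libraries, as a description. The libraries share group, depth and the low-dose oocyte signal. For tnni2a.1 they were ap1m2 (r = 0.984), ccnd1 (0.983), chmp4c (0.980), hprt1l (0.980) and zgc:162592 (0.979). Over the 12 libraries outside the low dose the same coefficients were between 0.687 and 0.795. TNNI2 itself followed tnni2a.1 with r = 0.954, and with 0.560 outside the low dose. The tnni2a.1 partner ap1m2, an adaptor subunit of vesicle transport, held 1277, 3479 and 222 normalized counts at the low dose and 12.7, 18.7 and 22.1 in the control.

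For TNNI2 the closest genes were foxo6b (r = 0.988), tmem144b (0.980), anxa13l (0.978), cyp27b1 (0.978) and gtf2a1l (0.978), and foxo6b kept 0.934 outside the low dose. foxo6b, a forkhead factor gene, held 553, 980.1 and 120.1 normalized counts at the low dose and 2.12, 6.23 and 5.36 in the control. None of the 5 genes closest to either troponin I gene was in a muscle list. Those lists held only 77 of the 17778 genes tested, the 4 genes followed left out, so this absence says little.

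For ACTA1 the closest genes were tesk2 (r = 0.971), ELF2 (0.970), WDR59 (0.966), jade1 (0.965) and otud5a (0.960), and tesk2 had 0.955 outside the low dose. tesk2, named as a testis kinase, held 199, 270.4 and 159 normalized counts in the control, 75.7, 59.9 and 129 at the low dose and 112, 99.5 and 122 at the high dose, each dose below the control as for ACTA1. For desmb they were cblc (r = 0.919), gnrh2 (0.907), foxa3 (0.904), tmem163a (0.900) and VILL (0.897). Of these, foxa3 and VILL were in the intestine list, and VILL held 264, 279 and 316 normalized counts at the high dose against 59.4, 69.8 and 169 in the control. That list was added after its values were seen, so their presence here is a description and no independent sign.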

How the data were processed

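The authors deposited 1 table whose values are a signal, namely normalized read counts per gene in each library, made with fastp 0.23.2, STAR 2.7.7a and DESeq2 1.34.0, per the submitters' processing notes. The build, the counter, strand use and the fate of reads matching more than 1 gene were not given in the sources used here, so near-identical copies and overlapping genes are uncertain, and no coordinates are given. Of 345420 values, 100% were whole multiples of each library's smallest value, within 0.001 of a whole read. The multiples are the recovered reads, and depth is their sum, 3.21 to 21.3 M per library. The chi-square per degree of freedom between replicates was 3.42 to 142, so no library was a copy of another.

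Genes were tested with limma 3.58.1 (R 4.3.3, eBayes with trend) on log2(value + 1), in 1 fit over 15 libraries and 17778 genes with a mean of at least 10. Calls have a Benjamini-Hochberg adjusted p under 0.05 over all genes of a contrast. Fold changes of low genes are understated by the added 1. The test was run on simulated counts with the same spread setting for all genes and libraries, and with changes in the high dose only. The chi-square per degree of freedom between low-dose replicates was 31.7 to 142, so that run does not cover the low-dose calls. Alternatives used edgeR 4.0.16 and DESeq2 1.42.0 on recovered reads. P-values measure the spread between these samples, since separate fish or pools are not stated.

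The genes followed and the gene lists were chosen with earlier results of these data known, and the intestine list after its values were seen. Listed symbols were matched without regard to case and with fish copy suffixes. Genes were named if they were 1 of the 4, a troponin, among up to 4 called genes of a list with the smallest adjusted p, among the 5 most correlated with 1 of the 4, or zp3b and bmp15. The testis genes ddx4, gsdf and dmrt1, and sypl2a, gfap and ryr1b at the high dose, were chosen after their values were seen. Deviations of same-numbered libraries of the high dose and the combined treatment correlated at 0.361, 0.198 and 0.124, all above 0.1. In no other pair of groups compared were all of them above 0.1. Libraries with different numbers were not compared and the sample titles state no pairing, so this does not show that replicate numbers pair libraries.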

Additional observations from a re-analysis of the deposited data

Results flagged for a closer look

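For ACTA1, the difference between the effects of the high dose with and without added vitamin C passed the test in the main fit. The log2 fold change of the high dose was -0.88 without vitamin C and 0.41 with it. The difference of these effects was 1.29 ± 0.33 (limma adjusted p = 0.0303). The call was lost in 8 of 22 alternatives, namely 7 of 12 fits that each left out 1 library (adjusted p up to 0.0932) and quantile normalization (1.10, adjusted p = 0.0652). Over the 4696 abundant genes the median of this difference was 0.29, against -0.08 over all genes, of which 5.6% were called higher and 2.47% lower. Scaled on abundant genes, the difference for ACTA1 was 1.04 (limma adjusted p = 0.0458). Its high-dose effect did not pass on that scaling (-0.50, limma adjusted p = 0.0605). All 3 high-dose libraries were below all 3 controls, while the libraries of the combined treatment (679.6, 946 and 1085 normalized counts) overlapped those of vitamin C alone (682, 661 and 661).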

How the results depend on the processing

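Among the 77 tested muscle list genes, the number called moved by over 1.5 times in these settings. A mean of at least 50 gave 16 in place of 35 at the low dose, 14 in place of 30 at the high dose and 2 in place of 4 for vitamin C added to the high dose, with 36 genes tested. A fit of the groups compared alone gave 14 at the low dose, 13 for vitamin C added to the high dose, 1 in place of 0 for the combined treatment against vitamin C alone and 21 in place of 1 for the difference of dose effects. On recovered reads, edgeR gave 10 and DESeq2 19 for vitamin C added to the high dose. DESeq2 gave 1 for the combined treatment against vitamin C alone. The difference of dose effects had 6 with edgeR and 17 with DESeq2. Over all genes, edgeR called 1162 higher and 620 lower for that difference, and DESeq2 1791 and 1362. That difference had 3 with a pseudocount of 5, with no filter or after quantile normalization, 2 with a mean of at least 50, and 4 when scaled on abundant genes. The low dose without its replicates 1 and 2 gave 5. This setting and the scaling on abundant genes were added after the data were seen.

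Leaving out 1 library at a time gave 22 to 45 calls at the low dose, 24 to 31 at the high dose, 0 to 3 for vitamin C added to the high dose, 0 to 0 for the combined treatment against vitamin C alone and 0 to 7 for the difference of dose effects. Vitamin C alone had 0 in every setting. With a replicate block, pairing libraries by number, the counts were 5 for vitamin C added to the high dose and 2 for the difference of dose effects, where it moved by over 1.5 times. The block changed no call of tnni2a.1, TNNI2, ACTA1 or desmb. The named genes also include some of the oocyte, intestine and intermediate filament lists. Of those called, 27 of 39 at the high dose and 11 of 39 at the low dose were called in every setting that tested them. The same held for 2 of 10 for vitamin C added to the high dose, 0 of 6 for the difference of dose effects and 0 of 4 for vitamin C alone. The 4 for vitamin C alone were all oocyte genes. Many of the named genes were picked for a small adjusted p, so these shares do not stand for all calls. The low-dose 39 included tnnc2.2, tnni2a.2 and myf6, and the high-dose 39 TNNI2, which passed the filter through the low-dose libraries alone. The 27 at the high dose included cdh17, fabp6, foxa3 and VILL of the intestine list, which was added after its values were seen. The tropomyosin gene tpm4b, -0.60 at the low dose, was 0.027 with replicate 3 alone. The cause was not tested in any of these. The main limits are 3 libraries per group and few reads of the troponin I genes and desmb outside 1 group each.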
